A study of Mus musculus with 24 samples.

Results

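In all, 10 genes of insulin signalling and glucose uptake were followed in epididymal white fat: Insr, Irs1, Irs2, Pik3r1, Akt2, Foxo1, Tbc1d4, Pde3b, Slc2a4 and Socs3. They were taken by symbol from a deposited RNA table of 20624 genes, and all 10 were found and had values high enough to be tested. The RNA libraries came from 12 males of the outbred CD-1 stock, aged 19 weeks at dissection, 1 library per animal. In the BPA group (n = 6) the dams had swallowed 500 ug of bisphenol A per kg each day over gestational days 9 to 18, and in the vehicle group (n = 6) they had swallowed corn oil over the same days. Offspring of both groups ate the same chow, with 4% fat. Animals are numbered 1 to 6 within each group, and the labels do not say which were littermates, so p-values take the animals as independent.

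Insulin binds its receptor on the fat cell, the receptor phosphorylates the IRS adaptors, and these recruit PI3-kinase, which activates the kinase AKT. In fat cells AKT2 releases vesicles that carry the glucose transporter GLUT4 to the surface, switches on the phosphodiesterase that stops lipolysis, and keeps the factor FOXO1 out of the nucleus. The pathway is controlled largely by phosphorylation, which RNA levels do not report.

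None of the 10 genes differed between BPA and vehicle fat beyond the spread between animals. The RNA values are normalized read counts, and fold changes are BPA over vehicle on the log2(value + 1) scale. With limma and Benjamini-Hochberg adjustment at 0.05, 0 of the 10 genes passed, where 0% of the 12528 genes tested passed in either direction. At an unadjusted limma p under 0.05 the count was also 0 of 10, against 1.91% of all genes tested (239 genes). Their adjusted p was 0.9997 each, which was also the smallest over the whole table. Of the 10, 6 had a log2 fold above 0 and 4 below, with a median of 0.06, and over all genes 51.0% lay above 0 with a median of 0.0032. The 6 BPA and the 6 vehicle values overlapped for every one of the 10 genes. The share of all genes with such overlap was not counted. Full separation is the rarest outcome of the exact permutation test (p = 0.00216), so overlap says little about these genes.

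**Figure D1:**
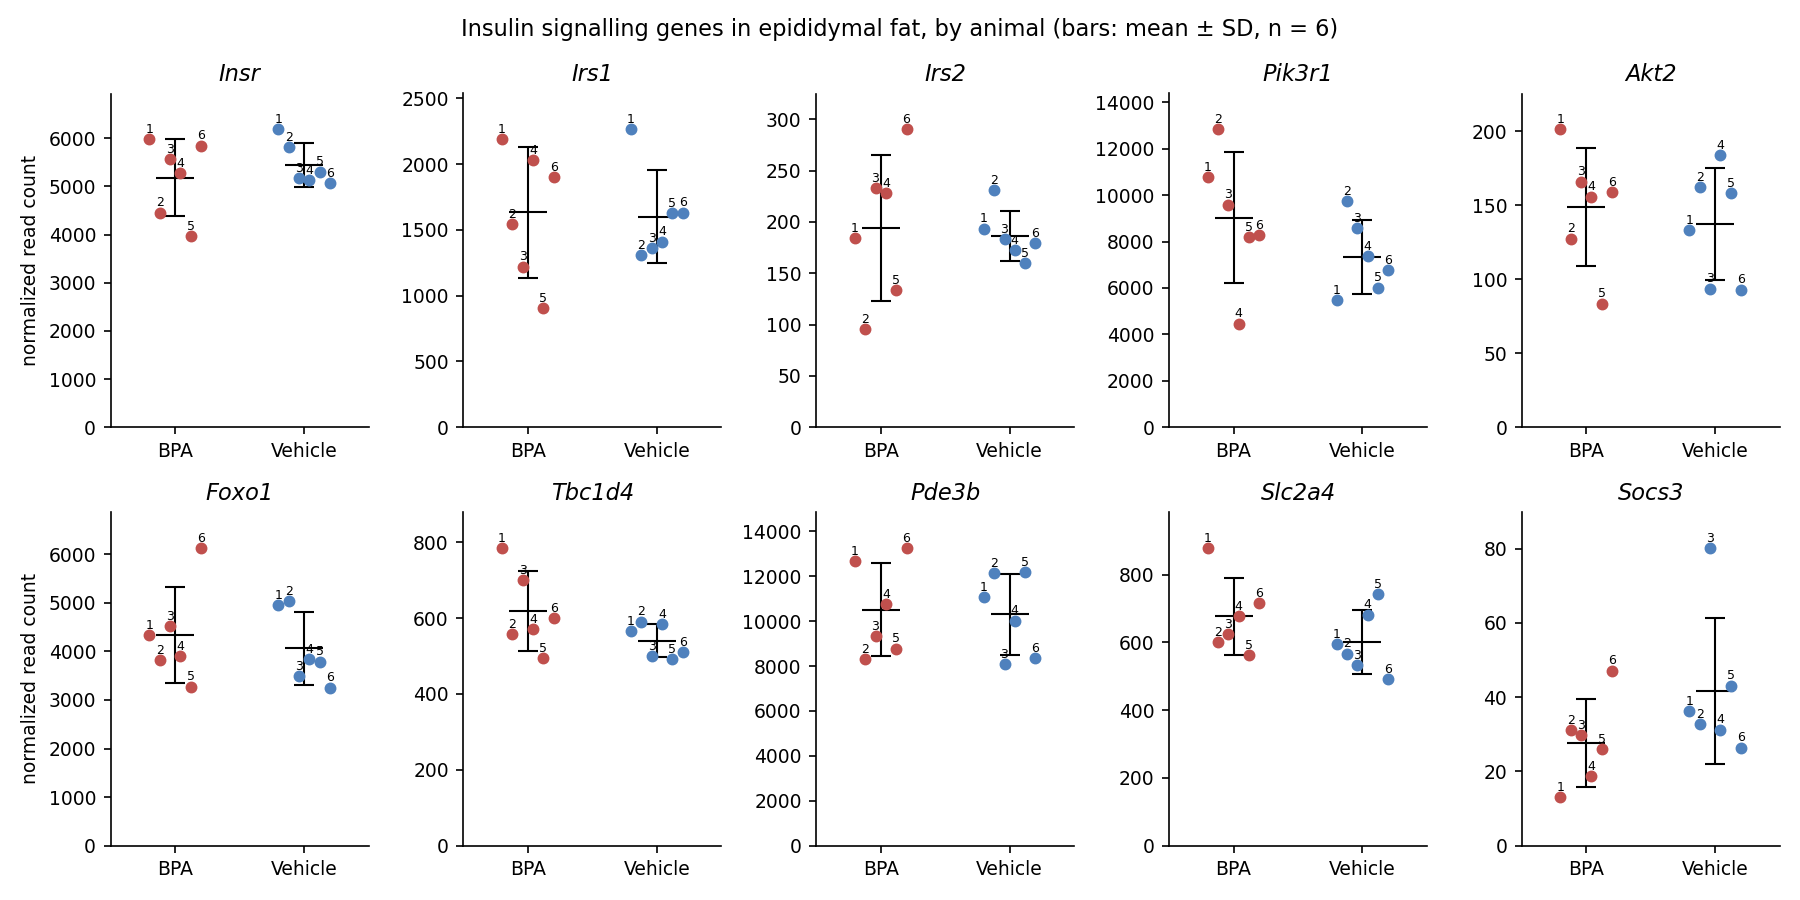
Normalized read count (vertical axis, linear, from 0) of each of the 10 genes in the 6 BPA and the 6 vehicle animals, with the animal number beside each point and bars for the mean and SD of each group. The groups overlap in all 10 panels, and Socs3 in vehicle animal 3 lies at 80.3, above the other 11 animals.

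Insr encodes the insulin receptor itself. It ran from 3962 through a median of 5426 to 5989 in BPA fat, and from 5067 through a median of 5239 to 6189 in vehicle fat. BPA animals 5 and 2, at 3962 and 4456, lay below all vehicle animals, and the other 4 lay within the vehicle range. The log2 fold was -0.08 with a 95% interval of -0.32 to 0.15 (limma p = 0.457, exact permutation p = 0.47, two-sided). That interval was among the narrowest of the 10 genes, together with that of Tbc1d4.

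Irs1 and Irs2 encode the adaptors that link the receptor to PI3-kinase. Irs1 ran from 906.8 through a median of 1723 to 2193 in BPA fat, and from 1306 through a median of 1518 to 2265 in vehicle fat. The lowest animal was BPA 5 and the highest vehicle 1, which stood apart from the other vehicle animals at 1306 to 1631. Its log2 fold was -0.01 (95% interval -0.46 to 0.44, limma p = 0.962, exact permutation p = 0.972). Irs2 ran from 95.4 through a median of 206.4 to 290.2 in BPA fat, and from 159.9 through a median of 181.3 to 230.6 in vehicle fat. BPA animals 3 and 6 lay above the vehicle range, BPA animals 2 and 5 below it, and the coefficient of variation was 36.7% in BPA and 13.0% in vehicle fat. The log2 fold of Irs2 was -0.03 (-0.52 to 0.46, limma p = 0.909, exact permutation p = 0.92). Both folds took the other sign under several alternatives, and without the 3 libraries richest in duct epithelium transcripts (BPA 2, BPA 5 and vehicle 6) they were 0.20 for Irs1 and 0.31 for Irs2.

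The 250 bases before the start of Irs1 and of Irs2 are shown because they share an element; the search for it was chosen after the values were seen. Sequences are RefSeq's for GRCm38.p6, and windows of this kind were given for 7 of the 10 genes, with several starts for Akt2 and Pik3r1. Each is written 5′ to 3′ in the direction of the gene, and capitals mark the letters CACGTG, an E-box, which reads the same on both strands. Irs1 lies on the minus strand (chr1:82291440-82291689) and Irs2 on the minus strand (chr8:11008930-11009179).
Irs1: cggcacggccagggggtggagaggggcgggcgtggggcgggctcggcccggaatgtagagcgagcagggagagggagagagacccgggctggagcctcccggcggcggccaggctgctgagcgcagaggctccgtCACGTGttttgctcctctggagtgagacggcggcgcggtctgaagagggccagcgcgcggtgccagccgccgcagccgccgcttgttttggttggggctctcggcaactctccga
Irs2: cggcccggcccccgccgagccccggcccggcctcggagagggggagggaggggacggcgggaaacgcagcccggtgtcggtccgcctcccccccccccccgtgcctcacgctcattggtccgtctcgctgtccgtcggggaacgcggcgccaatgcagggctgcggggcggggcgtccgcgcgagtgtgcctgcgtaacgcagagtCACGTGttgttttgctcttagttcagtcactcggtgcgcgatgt
The E-box began at base -115 in Irs1 and at base -44 in Irs2, counted back from the start, and CACGTG was present in 6.02% of 32851 such windows in the table. No GTAAACA, the core letters bound by FOXO factors, was found on either strand in any window given for these genes (3.17% of all windows held it). A match to letters is a description of the window and not of binding.

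Pik3r1 encodes the p85alpha regulatory subunit of PI3-kinase. It ran from 4465 through a median of 8938 to 12841 in BPA fat, and from 5466 through a median of 7078 to 9731 in vehicle fat. BPA animals 2 and 1, at 12841 and 10767, were above all vehicle animals and BPA animal 4 was below all of them. The group means were 9024 ± 2827 in BPA and 7325 ± 1604 in vehicle fat (SD, n = 6 each), and the log2 fold was 0.26 (-0.22 to 0.74, limma p = 0.265, exact permutation p = 0.323). Without BPA animal 4 the log2 fold was 0.45, with an unadjusted limma p of 0.0189 and an adjusted p of 0.9997.

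Akt2 encodes the AKT kinase that fat cells need for insulin-stimulated glucose uptake. Its values ran from 83.6 through a median of 157.3 to 201.4 in BPA fat, and from 93.0 through a median of 145.6 to 183.8 in vehicle fat. Low values occurred in both groups, in BPA animal 5 and in vehicle animals 6 and 3, and the log2 fold was 0.11 (-0.37 to 0.60, limma p = 0.619, exact permutation p = 0.658). Foxo1, the factor that AKT holds outside the nucleus, ran from 3272 through a median of 4116 to 6133 in BPA fat, and from 3253 through a median of 3816 to 5040 in vehicle fat. Apart from BPA animal 6 at 6133, all animals were at or under 5040, and the log2 fold was 0.08 (-0.24 to 0.41, limma p = 0.587, exact permutation p = 0.613).

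Tbc1d4 encodes AS160, the Rab GTPase activator that holds GLUT4 vesicles inside the cell until AKT phosphorylates it. It ran from 494.7 through a median of 585.6 to 785.7 in BPA fat, and from 492.4 through a median of 538.1 to 590.8 in vehicle fat. BPA animals 1, 3 and 6 lay above the vehicle range. Means were 618.3 ± 106 in BPA and 540.7 ± 44.4 in vehicle fat (SD, n = 6 each), for a log2 fold of 0.18 (-0.05 to 0.41, limma p = 0.121, exact permutation p = 0.152). Without the 3 libraries richest in duct transcripts the fold was 0.27, with an unadjusted limma p of 0.0362 and an adjusted p of 0.9876.

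Slc2a4 encodes GLUT4, the transporter that insulin brings to the surface of fat and muscle cells. It ran from 562.7 through a median of 650.2 to 879.3 in BPA fat, and from 491.5 through a median of 580.6 to 743.3 in vehicle fat. BPA animal 1 was the only one above the vehicle range, and vehicle animals 6 and 3 were the lowest of the 12. Means were 676.5 ± 113 in BPA and 601.6 ± 94.6 in vehicle fat (SD, n = 6 each), and the log2 fold was 0.17 (-0.10 to 0.44, limma p = 0.201, exact permutation p = 0.223). Since muscle and brown fat also express Slc2a4, their markers were summed: 12 skeletal muscle genes gave 47.4 to 105.5 in BPA and 48.1 to 80.4 in vehicle libraries, with 9 of the 12 under 10 in every library. BPA animal 3, which had 4884 for 12 brown adipocyte markers against 1003 to 2112 in the other 11 animals, was at 623.5 for Slc2a4, within the vehicle range. The part of muscle and brown fat in the Slc2a4 values was not tested.

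Pde3b encodes the phosphodiesterase through which insulin lowers cAMP and restrains lipolysis. It ran from 8324 through a median of 10039 to 13268 in BPA fat, and from 8079 through a median of 10546 to 12196 in vehicle fat. BPA animals 6 and 1 lay above the vehicle range and the others within it. The log2 fold was 0.03 (-0.29 to 0.34, limma p = 0.864, exact permutation p = 0.87).

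Socs3 encodes an inhibitor that is induced through STAT3 by cytokines and leptin and that blocks IRS signalling. It was at 13.0, 31.1, 29.7, 18.7, 26.1 and 47.1 in BPA animals 1 to 6, and at 36.3, 32.7, 80.3, 31.2, 43.1 and 26.4 in vehicle animals 1 to 6. The values of BPA animals 1, 4 and 5 were below the vehicle range, none above it, and vehicle animal 3 stood apart at the top. Means were 27.6 ± 11.8 in BPA and 41.7 ± 19.7 in vehicle fat (SD, n = 6 each). The log2 fold of -0.58 was the farthest from 0 of the 10 genes, with an interval of -1.27 to 0.10 (limma p = 0.0887, exact permutation p = 0.119). In limma fits without vehicle animal 3 it was -0.38, and without BPA animal 1 it was -0.40. Without BPA animal 6 it was -0.75, with an unadjusted limma p of 0.030, and no gene was called in that fit.

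The window before the start of Socs3 is shown for the letters TTCNNNGAA, the palindromic core that STAT factors bind, with N for any base and capitals on the match. It lies on the minus strand (chr11:117969367-117969616, GRCm38.p6) and is written in the direction of the gene.
Socs3: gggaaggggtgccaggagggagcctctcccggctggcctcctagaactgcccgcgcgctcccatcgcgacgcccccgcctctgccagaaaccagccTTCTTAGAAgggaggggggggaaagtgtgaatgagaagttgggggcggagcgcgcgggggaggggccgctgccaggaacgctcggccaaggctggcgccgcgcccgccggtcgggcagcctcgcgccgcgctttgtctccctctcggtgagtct
The match began at base -154, and 7.02% of the 32851 windows held these letters on either strand. Among the windows of the 10 genes a single other match was found, before the first listed start of Akt2.

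Vehicle animal 3 also had the highest level of several genes around Socs3. Il6, the cytokine interleukin-6, was at 15.0 there and at 1.01 or less in the other 11 animals, and Bcl3, a STAT3 target, at 75.1 against 10.8 to 24.5. The summed level of 14 macrophage markers, all detected, was 41918 in that animal, against 11061 to 14355 in the 6 BPA animals and 12720 to 16823 in the other vehicle animals. The neutrophil list (9 genes found) summed to 448.1 in it, against 29.9 to 84.3 in BPA and 24.4 to 64.9 in the other vehicle animals. Of these 9 genes, 2 were high enough to be tested and 4 were under 10 in every library. The part of these cells in the Socs3 values was not tested, and in whole tissue a different number of cells and a different amount of RNA per cell cannot be told apart. A list of 22 inducers and targets of IL6 and STAT3 signalling had 19 genes tested, 4 above and 15 below 0, with a median log2 fold of -0.09, and 0 passed. Bcl3 had a log2 fold of -0.73 (-1.47 to 0.005), Lcn2, the acute phase protein lipocalin 2, one of -1.45 (-3.99 to 1.10), and the leptin receptor gene Lepr one of 0.34 (-0.28 to 0.97). Without vehicle animal 3 the median of this list was 0.02. Several marker lists lay mainly on 1 side of 0 between the groups. Of 14 macrophage markers 13 were below 0 (median log2 fold -0.35). Of these 14, 2 had an unadjusted limma p under 0.05 (1.91% of all genes tested did). Without vehicle animal 3, in a fit added after the data were seen, 8 of 14 were below 0 (median -0.10). All 7 mesothelium markers found were below 0 (median -1.13), also without that animal (median -1.15). An unadjusted limma p under 0.05 was found for 2 of the 7, where 1.91% of all genes tested had one. Without that animal it was found for 3 of the 7, and for 198 of all 12528 genes tested. The sum of the 7 was 465.5 to 3721 in BPA and 1269 to 4772 in vehicle libraries. The 2 neutrophil markers tested were below 0 (median -0.285). All 6 cardiac and smooth muscle markers tested (median 0.51) and 8 of 9 brown adipocyte markers tested (median 0.38) were above 0. BPA animal 3 had the highest sum of both lists. Its cardiac and smooth muscle sum was 31051, against 9811 to 13678 in the other BPA and 8928 to 11130 in the vehicle libraries. Its brown adipocyte sum was 4884, against 1003 to 1644 and 1062 to 2112. The medians of both lists were not computed without BPA animal 3. No marker of these lists was called, none was at 0 in every library, and their part in the Socs3 and IL6 list values was not tested.

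**Figure D2:**
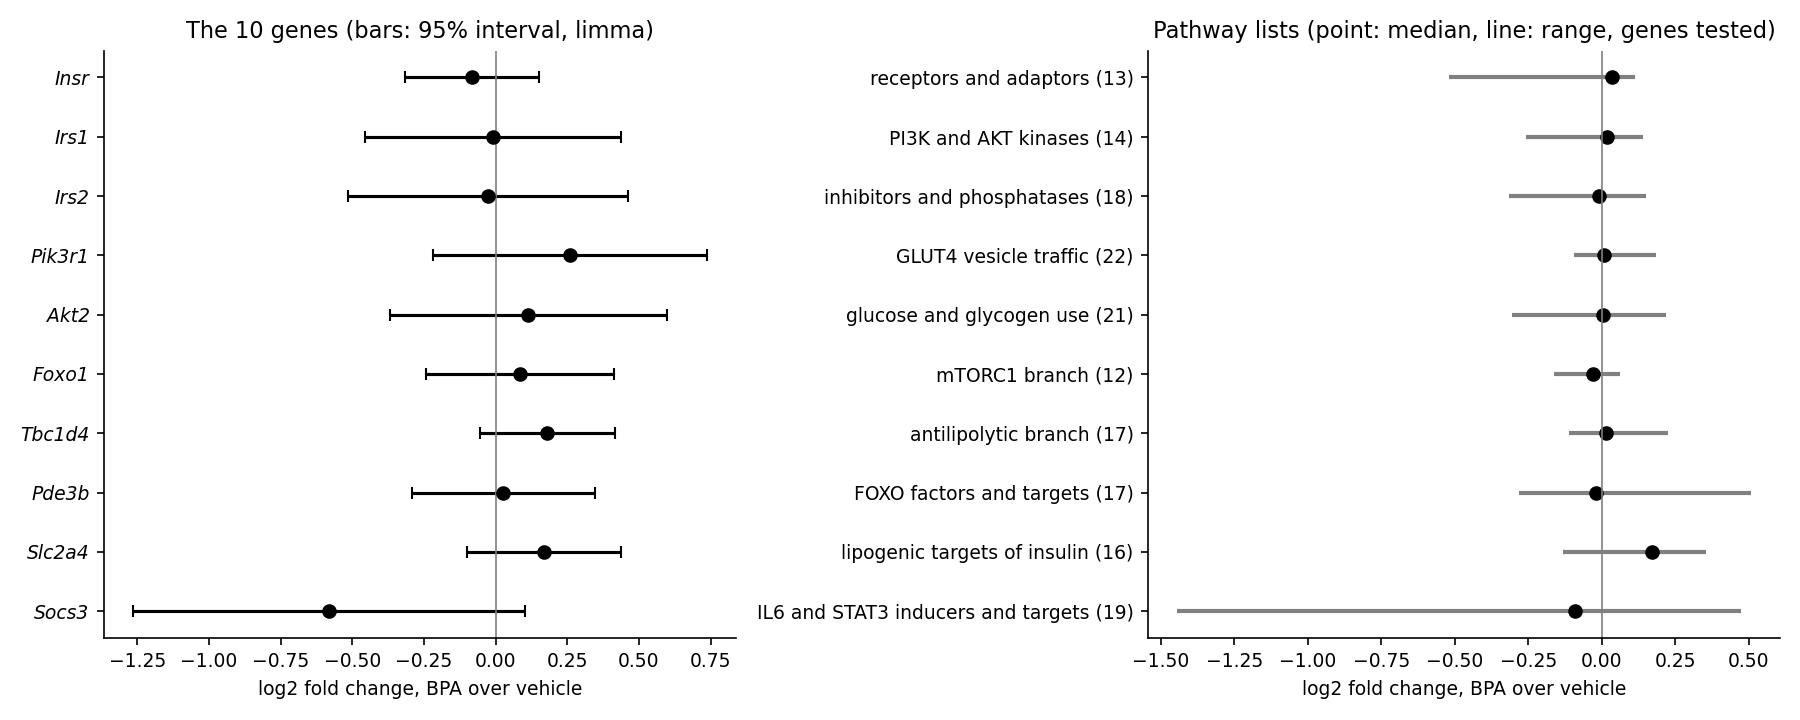
Left, log2 fold change of BPA over vehicle (horizontal axis) of each of the 10 genes with its 95% interval from limma. Right, the median (point) and the range (line) over the tested genes of each pathway list, with their number in brackets. All 10 intervals include 0, Socs3 lies farthest left at -0.58, and the list medians run from -0.09 to 0.17.

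In the rest of the pathway no gene passed either. In all, 10 lists held 184 entries, 169 of them tested, with 87 above 0, 82 below 0 and 0 called, and none had an unadjusted limma p under 0.05 (1.91% of all genes did). Upstream, receptors and adaptors had 8 of 13 above 0 (median log2 fold 0.03), led by p by Dok1, an adaptor of receptor tyrosine kinases, at -0.52 (-1.18 to 0.14), then Shc1 at -0.09 and the ubiquitin ligase gene Cbl at 0.08. PI3-kinase and AKT genes had 9 of 14 above 0 (median 0.02), with the regulatory subunit gene Pik3r2 at -0.18, Akt1 at -0.17 and Rictor, a subunit of mTORC2, at 0.11. Inhibitors and phosphatases were split 9 to 9 (median -0.009), with Socs6 at -0.19, the lipid phosphatase gene Inpp4b at 0.12 and the protein phosphatase gene Ppp2ca at 0.10.

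Downstream, 22 genes of GLUT4 vesicle traffic had 13 above 0 (median 0.007). Vamp2, the vesicle SNARE of GLUT4 fusion, averaged 474.4 ± 49.2 in BPA and 417.6 ± 44.6 in vehicle fat (SD, n = 6 each), a log2 fold of 0.18 (-0.01 to 0.38). The exocyst gene Exoc7 had -0.09 and the target SNARE gene Stx4a -0.06. Genes of glucose and glycogen use had 11 of 21 above 0 (median 0.006), with the glycolytic genes Pkm2 at -0.30 and Pfkfb3 at 0.22 and the transporter gene Slc2a3 at -0.20. The mTORC1 branch had 4 of 12 above 0 (median -0.03), with Rragc at -0.11, Akt1s1 at -0.16 and Eif4ebp2 at -0.07. The antilipolytic branch had 10 of 17 above 0 (median 0.01), with the phosphodiesterase gene Pde4b at 0.21, the protein kinase A gene Prkaca at 0.10 and Abhd15, a partner of PDE3B, at 0.14.

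Transcriptional targets were split into 2 lists. FOXO factors and targets had 7 of 17 above 0 (median -0.02), with the stress gene Ddit4 at 0.51 (-0.24 to 1.26), Gadd45a at -0.24 and Foxo4 at 0.14. Lipogenic targets of insulin had 12 of 16 above 0, and their median of 0.17 was the highest of the 10 lists. Srebf1, the lipogenic regulator that insulin induces, averaged 915.5 ± 137.5 in BPA and 766.3 ± 108.9 in vehicle fat (SD, n = 6 each), a log2 fold of 0.25 (-0.01 to 0.52). Pparg and Thrsp had 0.27 and 0.36, and the median of this list lay between 0.09 and 0.25 with single animals left out.

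Over the 12 animals, spread differed widely among the 10 genes. The highest value exceeded the lowest by 1.56-fold for Insr, 1.60-fold for Tbc1d4, 1.64-fold for Pde3b, 1.79-fold for Slc2a4 and 1.89-fold for Foxo1. It did so by 2.41-fold for Akt2, 2.50-fold for Irs1, 2.88-fold for Pik3r1, 3.04-fold for Irs2 and 6.18-fold for Socs3. The coefficient of variation was larger in BPA than in vehicle fat for 8 of the 10 genes (not for Akt2 and Socs3), against 49.5% of 12505 named genes. Without the 3 libraries richest in duct transcripts the count was 6 of 10, and without BPA animal 5 it was 7 of 10, against 44.3% and 40.6% of the named genes. This comparison of spread was chosen after the values were seen and has no test.

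Low and high values of the 10 genes clustered in certain animals of both groups. BPA animal 5 was among the lowest 3 of the 12 for 8 of the 10 genes, and vehicle animals 6 and 3 for 5 each. BPA animals 1 and 6 were among the highest 3 for 7 genes each. The shares of all genes with these animals so low or so high were not counted. Adipocyte markers were low in the same 3 low animals, while duct markers were high in BPA 5 and vehicle 6 and not in vehicle 3. The sum over 16 white adipocyte markers, all detected, was 565852 to 954182 in BPA and 545884 to 824969 in vehicle libraries, and its 4 lowest libraries were vehicle 6, BPA 5, vehicle 3 and BPA 2. The sum over 12 duct epithelium markers, led by the endocytic receptor gene Lrp2, was 16497 in BPA 5, 5870 in BPA 2 and 1279 to 2252 in the other BPA libraries, and 10482 in vehicle 6 and 1641 to 2980 in the other vehicle libraries, with vehicle 3 at 1772 close to BPA 6 at 1737. A list of 8 epididymal epithelium markers, 0 of them high enough to be tested, was also uneven. Its sum was 4766 in vehicle 6, 593.2 in vehicle 4, 212.7 in BPA 5 and 3.88 to 35.05 in the other libraries. No marker of these lists was at 0 in all libraries, and the part of tissue composition in the values of the 10 genes was not tested.

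**Figure D3:**
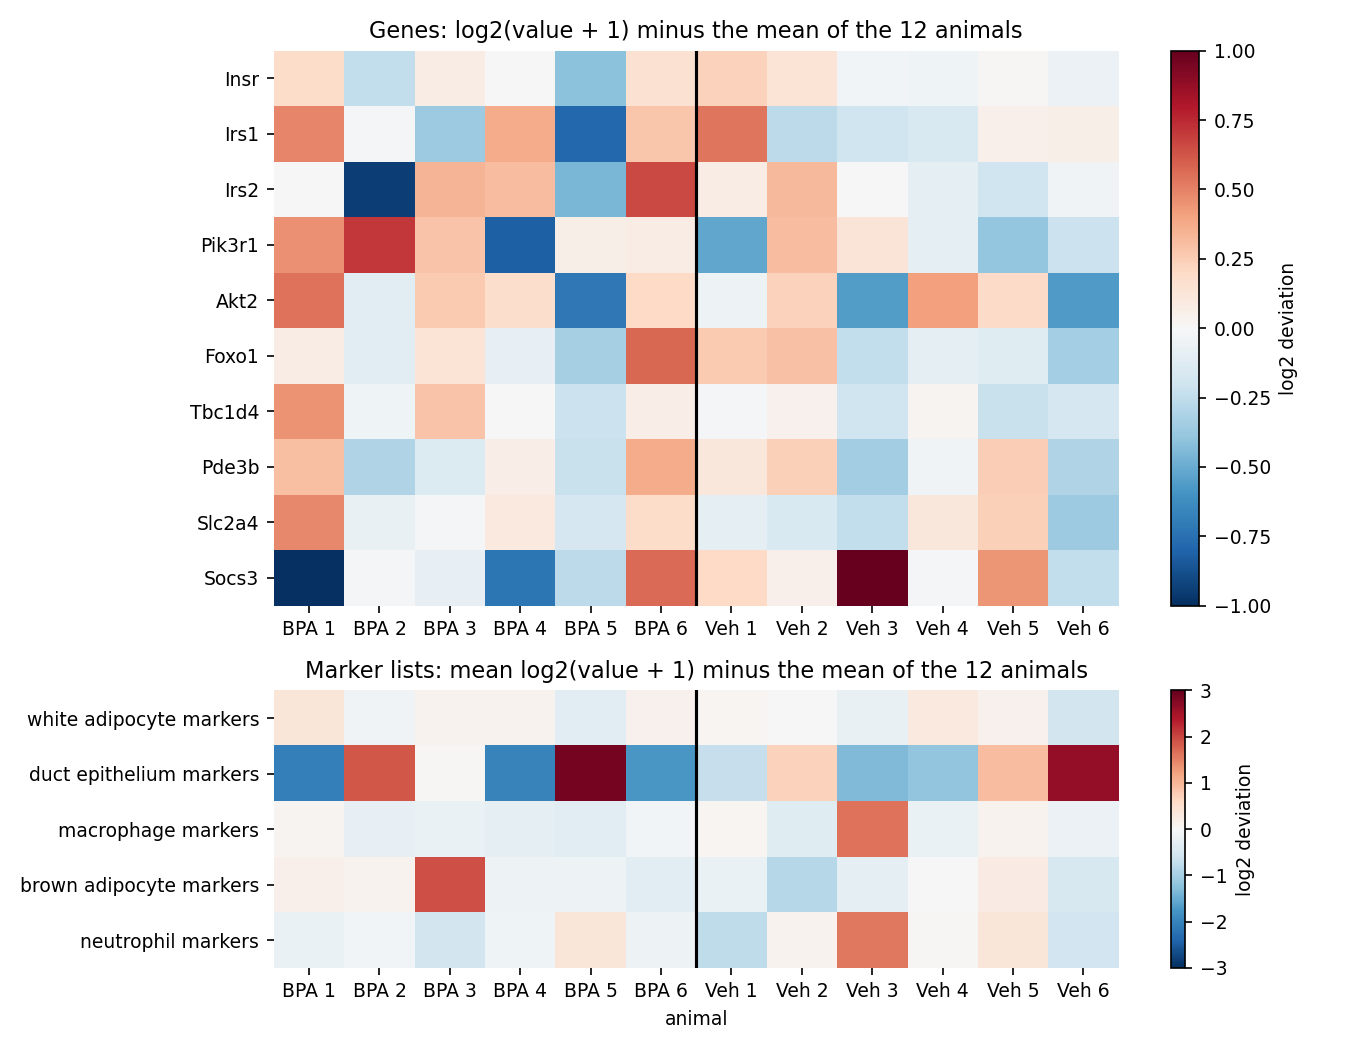
Deviation of each animal (columns, 6 BPA then 6 vehicle) from the mean of the 12 animals on the log2(value + 1) scale, for the 10 genes (upper panel, colours saturate at 1) and for the mean of 5 marker lists (lower panel, colours saturate at 3). BPA 5 and vehicle 6 are blue for most genes and dark red for duct epithelium markers, and vehicle 3 is red for Socs3, macrophage and neutrophil markers.

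Close relatives of 3 of the genes had another order of animals. Igf1r, the IGF1 receptor gene and nearest relative of Insr, was highest in BPA 5 and vehicle 6, at 1630 and 1434, against 609 to 922 in the other BPA and 534 to 1001 in the other vehicle animals. Slc2a1, the gene of the widely expressed transporter GLUT1, was also highest there, at 365.0 and 321.2, while Slc2a4 was lowest of its group in both. Akt1 was highest in vehicle 3 and BPA 5, at 216.0 and 200.3, where Akt2 was at 93.6 and 83.6. These relatives were picked after their values were seen, and between BPA and vehicle fat their log2 folds were -0.06 for Igf1r, 0.07 for Slc2a1 and -0.17 for Akt1, none called by limma.

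**Figure D4:**
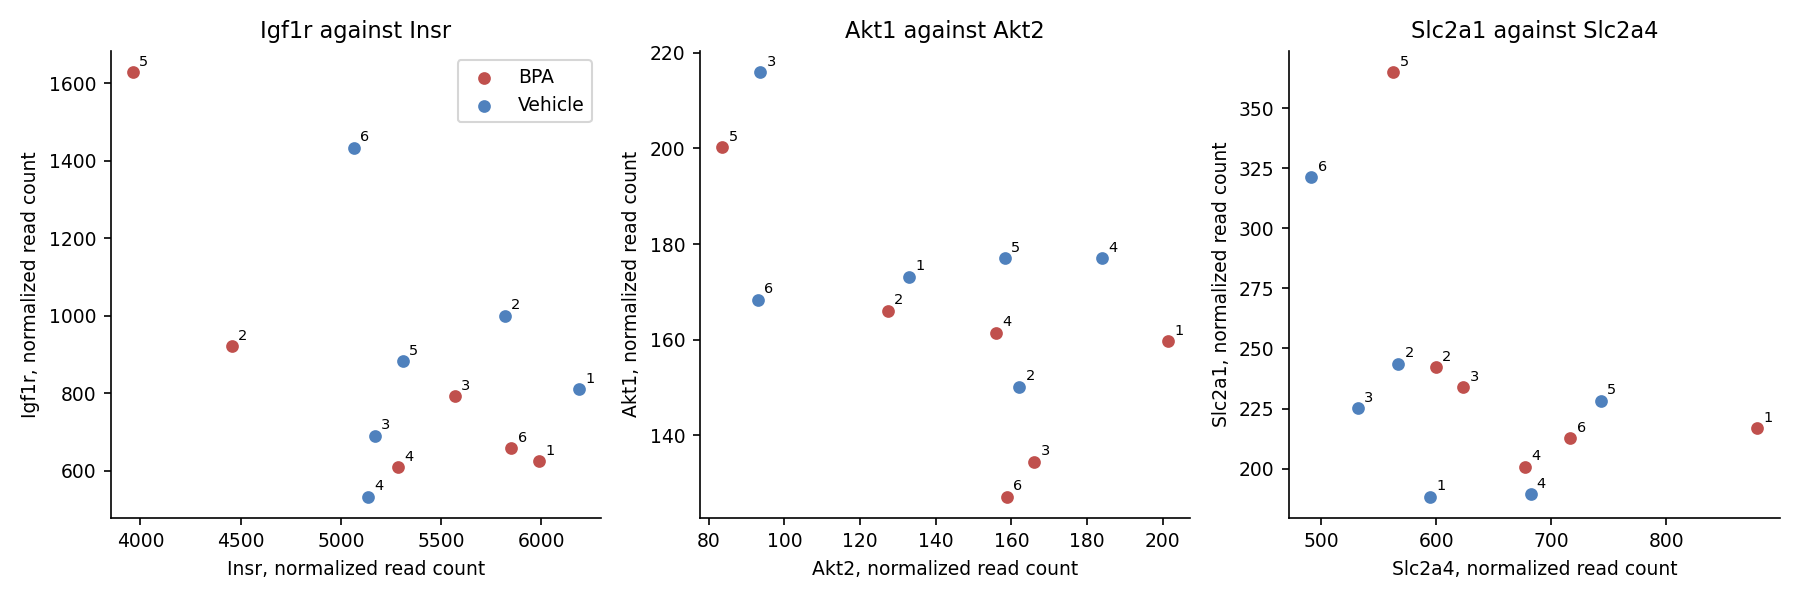
Normalized read count of Igf1r against Insr, of Akt1 against Akt2 and of Slc2a1 against Slc2a4 (linear axes), 1 point per animal with its number, BPA red and vehicle blue. BPA 5 and vehicle 6 have the highest Igf1r and Slc2a1 counts.

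By r or rho of the pooled animals no pair of the 10 genes passed the adjusted threshold, and the correlations are given as a description. In all, 45 pairs were tested: 13 had an unadjusted permutation p under 0.05 and 0 passed after Benjamini-Hochberg adjustment. No such share was counted over pairs of other genes, so the pairs cannot be called particular to these genes. The smallest adjusted permutation p was 0.0584 for r and 0.0508 for rho. The 8 genes other than Pik3r1 and Socs3 were set apart after their values were seen, because r was above 0 in all of their 28 pairs. Over the 12 animals Pearson's r of the log2 values ran from 0.18 to 0.80 in these pairs, with a median of 0.55. Within BPA animals it ran from 0.39 to 0.95 (median 0.74). Within vehicle animals it ran from -0.47 to 0.93 (median 0.46), and 4 pairs were below 0: Irs2 with Slc2a4 (-0.47), and Irs1 with Irs2 (-0.18), Akt2 (-0.10) and Tbc1d4 (-0.04). Without the 3 duct-rich libraries r ran from -0.13 for Irs2 with Slc2a4 to 0.77, with a median of 0.35. The highest r over the 12 animals was that of Akt2 with Slc2a4 (r = 0.80, permutation p = 0.00166, adjusted 0.0584, Spearman's rho = 0.75, permutation p = 0.00719, adjusted 0.0524). It was 0.82 within BPA and 0.80 within vehicle animals, and 0.76 (permutation p = 0.0132) without BPA 5 and vehicle 6, the 2 animals farthest from the median of Akt2. For Foxo1 with Pde3b r was 0.74 (permutation p = 0.00626, adjusted 0.0584) and rho 0.69 (permutation p = 0.017, adjusted 0.0765), and without BPA 6 and vehicle 2, the animals farthest from the median of Foxo1, r was 0.58 (permutation p = 0.0822). For Insr with Foxo1 r was 0.73 (permutation p = 0.00742, adjusted 0.0584) and rho 0.81 (permutation p = 0.00231, adjusted 0.0508), and without BPA 5 and BPA 2, the animals farthest from the median of Insr, r was 0.82 (permutation p = 0.00415). The last 2 pairs thus leave out different animals and are not compared.

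Pik3r1 had r between -0.35 and 0.39 with the other 9 genes, and Socs3 between -0.56 and 0.08. The lowest, Socs3 with Tbc1d4 (r = -0.56, permutation p = 0.0613, rho = -0.25, permutation p = 0.43), was -0.22 (permutation p = 0.557) without BPA 1 and BPA 3. With each animal expressed as a deviation from its group mean and permuted within groups, 12 of the 45 pairs had an unadjusted p under 0.05 and again 0 passed (smallest adjusted permutation p = 0.0776). Permuted across groups, which was the form run first, 11 of the 45 passed.

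**Figure D5:**
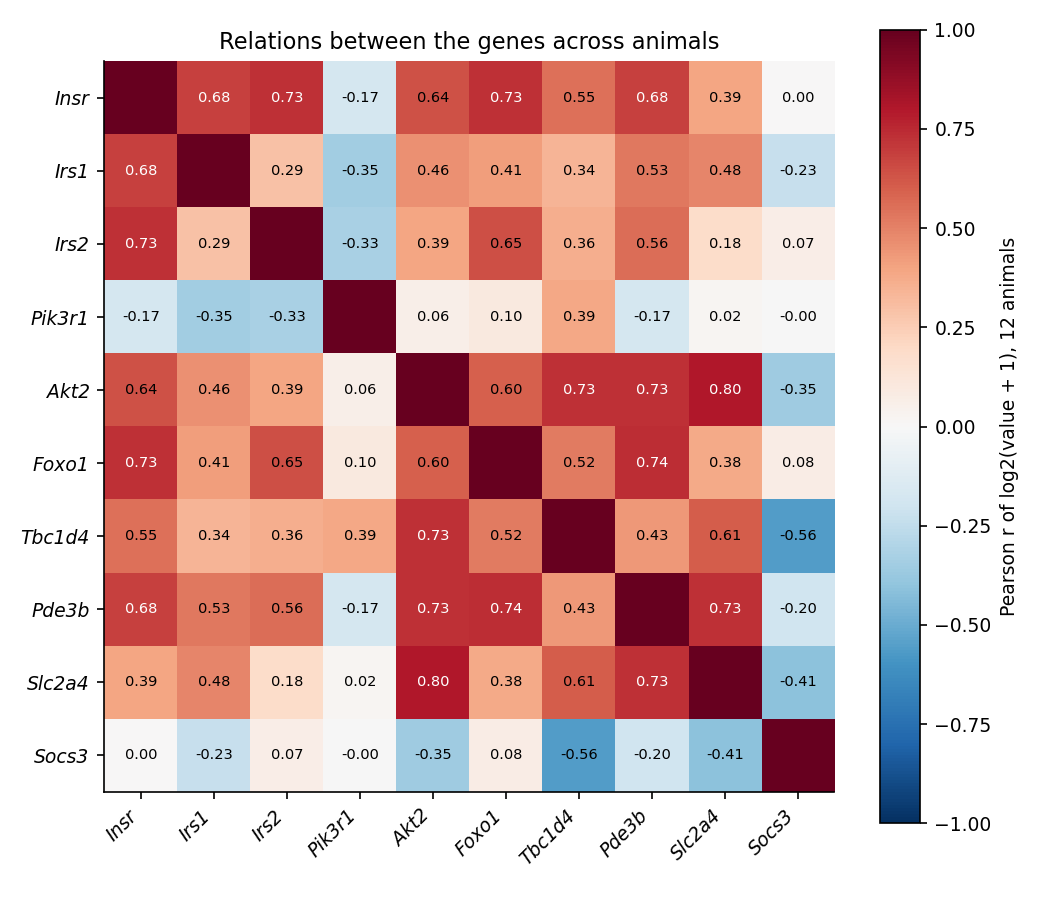
Pearson's r of log2(value + 1) over the 12 animals for every pair of the 10 genes, from -1 (blue) to 1 (red). The block from Insr to Slc2a4 is red except for the row and column of Pik3r1, and Akt2 with Slc2a4 has the highest value, 0.80.

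Across the whole table, the genes most like Slc2a4 and Socs3 were listed by r of deviations from the group means over the 12 animals, as a description. For Slc2a4 these were Hibadh (0.92), a mitochondrial enzyme gene of valine breakdown, Lag3 (0.91), Ppm1a, a protein phosphatase gene (0.91), Uqcrfs1, the Rieske subunit gene of respiratory complex III (0.91), and 1300001I01Rik (0.91). For Socs3 they were Azi2 (0.90), the coagulation factor gene F13a1 (0.88), the phagocyte oxidase gene Ncf1 (0.87), Lypd6 (0.87) and the lymphocyte receptor gene Cd226 (0.87). Without subtracting group means r was 0.65 for Azi2 and 0.67 for Lypd6 with Socs3, and 0.75 for Hibadh with Slc2a4. These genes were picked for the highest r of the table, so high values follow from the choice. The list was not made again without vehicle animal 3.

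In the authors' own comparison none of the genes stood out either. That comparison sets vehicle animals 2, 3 and 5, which a header line of the table marks as low in Fggy, against the other 9 animals. In the authors' deposited table, which keeps the 9522 genes with a maximum of at least 100, 9 of the 10 genes are present and Socs3, which peaks at 80.3, is not. Their p-values in the authors' deposited table run from 0.256 for Tbc1d4 to 0.97 for Irs2. None is among the 524 genes (5.5%) that the authors' deposited table keeps at a p under 0.05.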

How the data were processed

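Of 24 libraries from 12 animals, the 12 RNA libraries were used here. Per the labels' protocols, RNA was depleted of ribosomal RNA and sequenced with SOLiD kits. The deposited RNA table holds a signal that the authors derived from read counts by normalization to a common library size, with the mm9 build and edgeR named in the submitters' processing notes. No source used here names the aligner or the annotation. Library sums run from 9628801 to 11582945 after scaling, so depth is unknown and no counting interval can be set. Low values were not whole multiples of 1 step: 3.75% to 56.3% of those between 0.5 and 20 were, within a tolerance of 0.01. A further 60 columns of per-sample values in the other tables were not used. The p-values of the authors' own comparison, as deposited in the authors' tables, were copied. They were matched to within 9e-15 by an equal-variance comparison of the same animals. The 1000 deposited MBD windows were not analysed here, since no mm9 annotation was at hand to place them at genes.

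Of 13 panel rows above the table, 12 repeats were dropped. Rows whose name is a date (25) or marks a duplicate (512) were tested and not named. limma 3.58.1 (R 4.3.3), with an intensity trend, was fitted to log2(value + 1) for 12528 genes that reached 10 in no fewer than 6 libraries. This scale understates changes of low genes. Exact permutation tests of the mean log2 difference used all 924 assignments of the animals to the groups and were two-sided and unadjusted. Relations between genes were tested with 100000 permutations (20000 without the 2 farthest animals). The fit was tested on simulated data. The 10 genes, the pathway and marker lists and the rule for named genes were chosen with earlier results of these data known. The rule names all 10 genes, the 3 of each pathway list with the smallest p, and the 5 genes most like Slc2a4 and Socs3. Il6, Lrp2 and the relatives of the 10 genes were added after their values were seen, as were the E-box search and the comparison of spread. Of the listed genes, 7 were found under another symbol of the same gene. The deviations from group means were first permuted across groups; permutation within groups replaced this after that result was seen, because centred values are exchangeable only within their group.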

Additional observations from a re-analysis of the deposited data

Results flagged for a closer look

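Among the 20 sets of 6 values (10 genes in 2 groups), a gap test at the 95% level marked 2 single animals, where chance alone marks about 1 set in 20. Irs1 in vehicle animal 1 was at 2265, against 1306 to 1631 in the other vehicle animals. Socs3 in vehicle animal 3 was at 80.3, against 26.4 to 43.1 in the other vehicle animals. The same animal was highest in macrophage and neutrophil markers, and their part in the Socs3 value was not tested.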

How the results depend on the processing

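No gene of the table was called in the main analysis or in any of 22 alternatives: other pseudocounts, filters and scalings, array weights, the replicate block, the duct-rich libraries left out, and each animal left out in turn. The smallest adjusted p of the 10 genes in any of them was 0.9876. The count of genes at an unadjusted p under 0.05, 239 in the main analysis, was 569 with no filter, 133 with a mean of at least 100, 368 with array weights, 449 without the 3 duct-rich libraries, 368 without BPA animal 5 and 397 without vehicle animal 6.

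Pik3r1, Akt2, Tbc1d4, Slc2a4 and Socs3 kept the sign of their log2 fold in all alternatives that gave a value (Socs3 does not reach a mean of 100). Leaving out single animals gave 0.14 to 0.45, 0.01 to 0.27, 0.11 to 0.24, 0.09 to 0.23 and -0.75 to -0.38 for these genes. The other 5 took the other sign somewhere. With array weights Irs1 was 0.073 and Pde3b -0.072. Without the duct-rich libraries Insr was 0.041, Irs1 0.20 and Irs2 0.31. Leaving out single animals gave -0.13 to -0.01 for Insr, -0.11 to 0.15 for Irs1, -0.16 to 0.16 for Irs2, -0.022 to 0.16 for Foxo1 and -0.046 to 0.089 for Pde3b. None of these 5 folds gives a direction. Among the pathway lists, the median of the lipogenic targets stayed above 0 in all alternatives, and each other list's median took the other sign in at least 1.

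The labels do not give the animal numbers as pairs across the groups. The correlation of same-numbered animals' deviations ran from -0.57 to 0.40, which cannot show which animals were littermates. With the replicate block, 0 genes were called and Socs3 had a log2 fold of -0.58. Of the 45 pairs of genes, 11 passed when deviations from the group means were permuted across groups (smallest adjusted permutation p = 0.037) and 0 when they were permuted within groups. The first form was run first, and the second was chosen after seeing that result. And 0 of the 45 passed without the 2 farthest animals (smallest adjusted permutation p = 0.187, with 9 at an unadjusted p under 0.05). With 6 animals per group the interval of the median gene had a half-width of 0.34 on the log2 scale, which limits the differences that could be detected. The planned analysis of MBD windows at the 10 genes was not run.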
